A study of Sus scrofa with 28 samples.

Results

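The cytosolic ribosomal protein genes were read in the lungs of large female swine 12 h after a 10 min inhalation of sulfur mustard (HD) vapor, an alkylating blister agent, or of air. Probe sets were taken where the porcine array's annotation gave exactly 1 symbol of the RPL or RPS series, or RPLP0, RPLP1, RPLP2 or RPSA, leaving out 6 look-alike symbols such as the S6 kinases. Each gene was read at its brightest probe set. The rule found 61 genes among the 6765 symbols of the array, and these genes had 93 of 23999 probe sets. Of the 61 genes, 37 encode proteins named for the large subunit and 24 for the small subunit. The paralogs RPL7L1, RPL26L1 and RPL36AL are counted among the 37.

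The 3 air animals (28, 29 and 44) breathed air, the 3 low animals (31, 32 and 33) received 60 ug/kg HD, and the 4 medium animals (34, 39, 41 and 42) received 100 ug/kg HD. The labels give all 10 pigs, air animals included, the same pre-medication, anesthesia, intubation and supine position. The left apical, median and caudal lobes were hybridized separately, which gave 28 arrays, with the caudal lobe of medium animal 39 and the apical lobe of medium animal 41 not analysed here. "Median" is the name of a lobe throughout, and medians of values are called middle values. Each array holds RNA of lung tissue with many cell types, so fewer cells of a type and less RNA per cell cannot be told apart. The alveolar type 2 cell gene SFTPC, which encodes surfactant protein C, had a mean signal of 2929 over the arrays, with a range of 2086 to 3664.

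Cytosolic ribosomes are built from ribosomal RNA and a fixed set of proteins, most of them present once in each particle. The messages of these proteins begin with a terminal oligopyrimidine (TOP) tract, through which the kinase mTOR controls their translation more than their abundance. Several free ribosomal proteins have other duties: RPL5 and RPL11, together with 5S ribosomal RNA, can bind MDM2 in human cells and so spare p53, the regulator that DNA alkylation activates. In most tissues these messages are abundant and even, and RPLP0 and RPS18 often serve as reference genes for that reason.

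Most of the genes were among the brightest features of the array. The mean signal was above 1000 for 55 of the 61 genes and above 2000 for 53. Among the 234 probe sets above 2000, 22.6% were these genes, while the middle signal of an array lay between 55.6 and 64.4. RPL31 averaged 3704, RPS18 3658, RPL5 3498 and RPS27A 3472 on the deposited scale. The dimmer 6 were RPL7L1 at 716, RPL26L1 at 566, RPL37 at 554, RPL26 at 25.8, RPL30 at 18.4 and RPS15A at 13.0. RPL26, RPL30 and RPS15A were therefore read by probe sets dimmer than the middle of the array. These levels describe probe sets, since brightness differs between probes for equal amounts of RNA.

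None of the 61 genes was called in any comparison. Calls were made with limma at a Benjamini-Hochberg adjusted p under 0.05 over all 23999 probe sets, with the animal as the replicate. Between low and air animals, 0 of 61 genes were called, against 0 of all probe sets (0%), and 1 gene had an unadjusted p under 0.05. Between medium and air animals, 0 of 61 were called, against 31 of all probe sets (0.129%), and 2 had an unadjusted p under 0.05. Between medium and low animals, 0 of 61 were called, against 1 of all probe sets (0.00417%), and 4 had an unadjusted p under 0.05. Over all probe sets, the share with an unadjusted p under 0.05 was 7.41%, 16.6% and 18.2% in those same comparisons. Over 22 alternative fits of each comparison, the unadjusted count of the 61 ran from 0 to 3 for low against air, 1 to 5 for medium against air and 1 to 11 for medium against low.

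The differences between groups were small for most genes, and most of the genes lie near the top of the array's scale. The highest signal of an array ran from 3027 to 4972 on the deposited scale. Whether the upper end of the scale narrows differences and spreads was not tested. On the log2 scale, after quantile normalization, the middle gene differed by 0.0034 in low against air animals, with 38 of 61 genes higher. It differed by -0.019 in medium against air animals, with 22 higher, and by -0.022 in medium against low animals, with 21 higher. All probe sets together had middle differences of -0.0050, -0.00044 and 0.0030. The interquartile range of the 61 differences was 0.039, 0.057 and 0.065, against 0.199, 0.235 and 0.251 over all probe sets. The large subunit genes had middle differences of 0.0072, -0.020 and -0.030, and the small subunit genes -0.0014, -0.015 and -0.015, in the same order of comparisons.

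**Figure D1:**
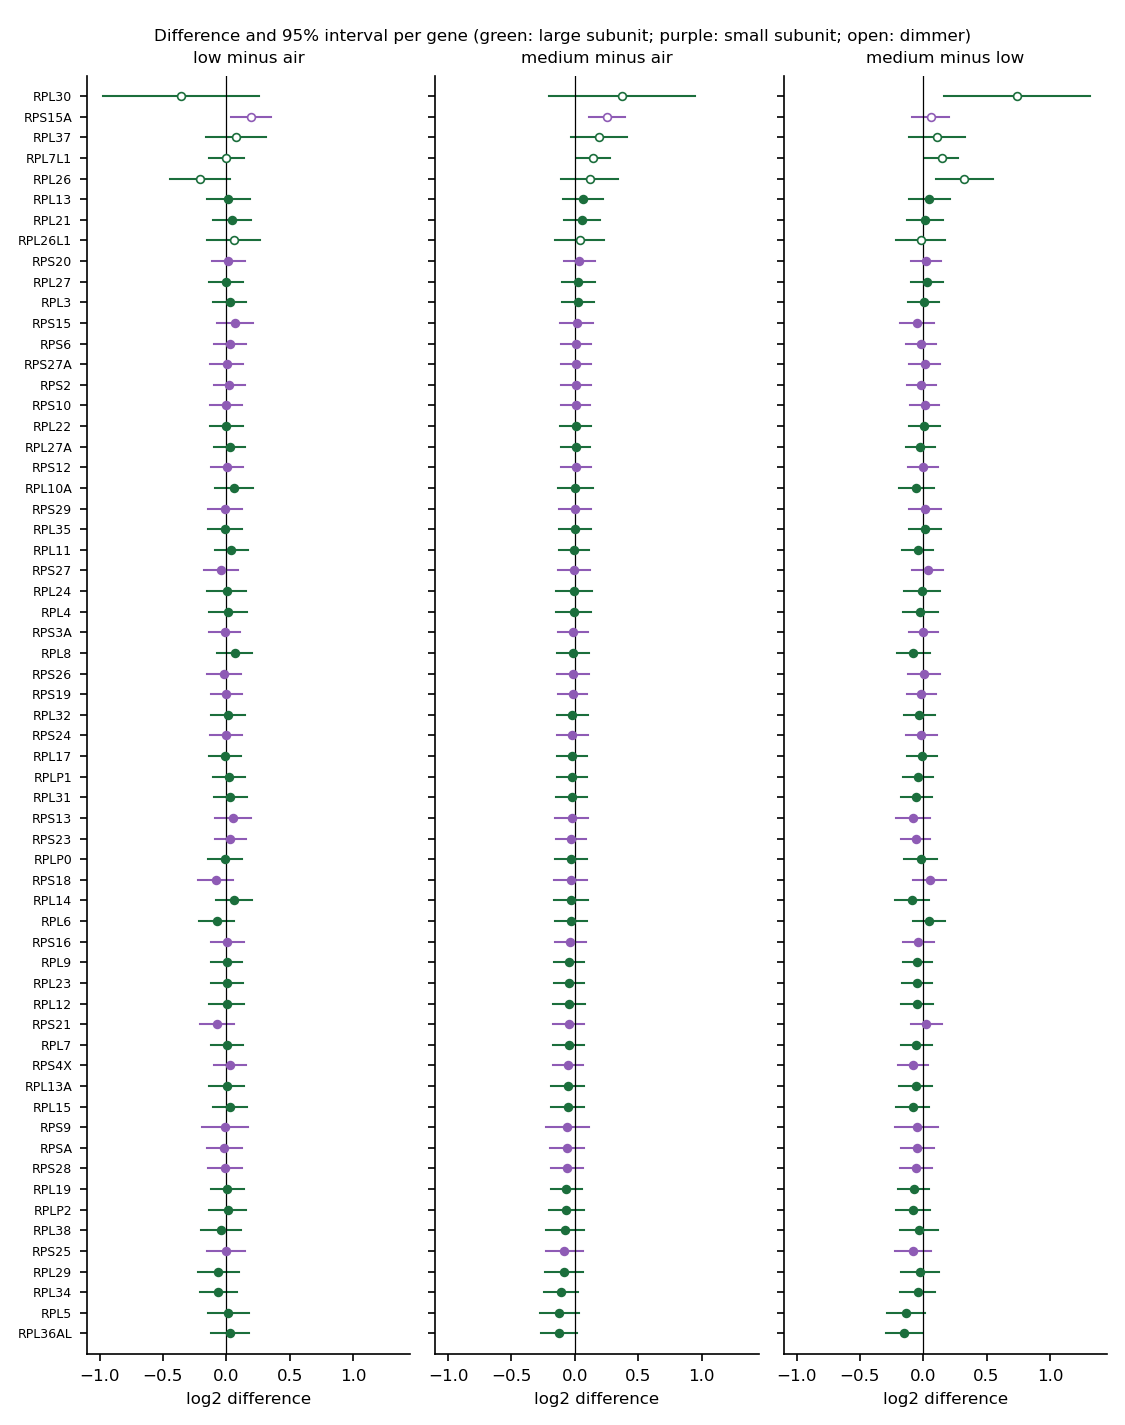
Log2 difference (x axis) of each of the 61 genes (y axis, ordered by medium minus air) with its 95% limma interval, for the low or the medium animals minus the air animals, and for medium minus low. Filled points are the 55 genes with a mean signal above 1000, and all of them sit between -0.15 and 0.065. The widest intervals belong to dim RPL30.

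Among the 55 bright genes, the differences ran from -0.084 to 0.065 for low against air, from -0.13 to 0.064 for medium against air, and from -0.15 to 0.052 for medium against low. The 95% interval of a bright gene had a typical half-width of 0.13 in each of the 3 comparisons. Taken over the 55 genes, the interval bounds reached -0.23 and 0.21, -0.27 and 0.22, and -0.29 and 0.21. The whole interval lay within 0.25 log2 units of 0 for 55 of 55 bright genes in low against air animals, 53 in medium against air and 53 in medium against low. Differences inside those intervals could not be resolved by this fit with 3 or 4 animals a group. The intervals and p-values rest on each gene's spread combined by limma with that of all probe sets. For a gene steadier than most, this widens the interval and raises the p-value. The 177 other probe sets above 2000 spread more widely, with interquartile ranges of 0.061, 0.089 and 0.088. Of the 177, limma called 0 in these comparisons, with 2, 8 and 17 at an unadjusted p under 0.05. The 177 are not free of ribosomal genes. They include FAU, RACK1 and probe sets annotated to RPL10, RPL36 or RPL35A beside a second symbol, and 53 of the 177 are not in the annotation.

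**Figure D2:**
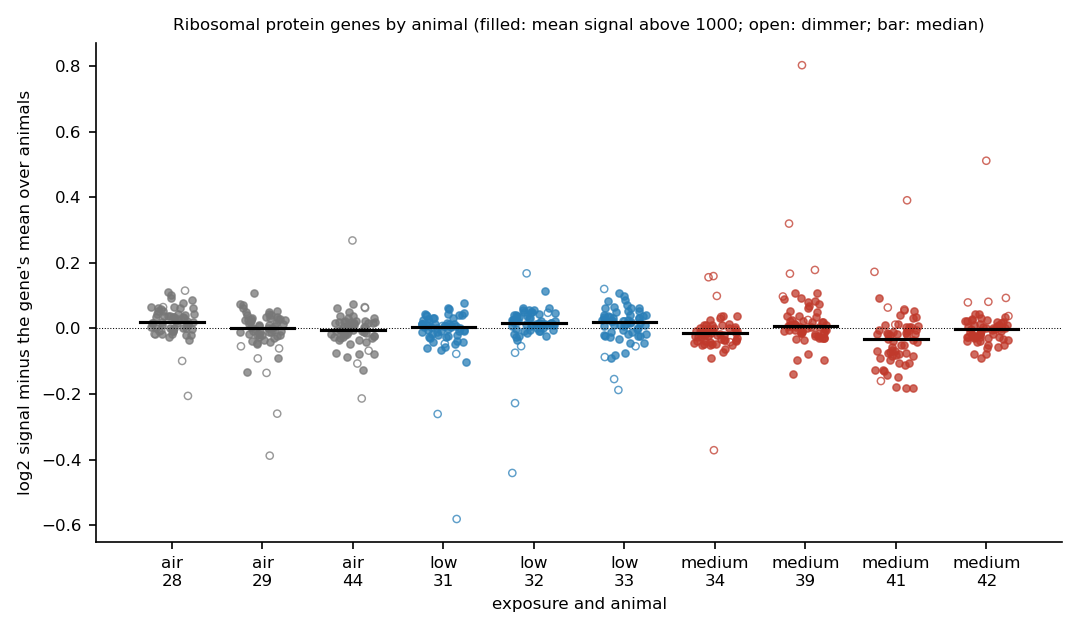
Each point is 1 of the 61 genes in 1 animal (x axis), as its log2 signal minus that gene's mean over the 10 animals (y axis), and the bar is the middle gene. The bars lie between -0.031 in medium animal 41 and 0.021 in air animal 28, and the points far from 0 are dim genes (open).

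By animal, the middle gene lay 0.021, 0.0029 and -0.0036 from its 10-animal mean in air animals 28, 29 and 44. It lay 0.0042, 0.015 and 0.020 away in low animals 31, 32 and 33, and -0.014, 0.0090, -0.031 and -0.0027 away in medium animals 34, 39, 41 and 42. Medium animal 41 was lowest and the groups overlapped. Of the 61 genes, 45, 32 and 29 were above their mean in the air animals, 34, 45 and 40 in the low animals, and 17, 37, 17 and 28 in the medium animals.

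Partners of 5S ribosomal RNA and genes in common use as references were read whatever their p. RPL11, a partner of 5S ribosomal RNA, read 2928, 2907 and 2897 in the air animals, 2907, 3059 and 3013 in the low animals, and 2836, 2935, 2894 and 2936 in the medium animals. Its groups overlapped, and it differed by 0.040 in low against air, by -0.0051 in medium against air and by -0.045 in medium against low animals (adjusted p 0.875, 0.975 and 0.688). RPL5, the other protein of that complex, read 3587, 3751 and 3425 in the air animals, 3672, 3569 and 3639 in the low animals, and 3266, 3573, 3065 and 3295 in the medium animals. Medium animals 34, 41 and 42 were below all 3 air animals, and medium animal 39 was among them. RPL5 differed by 0.016 in low against air animals (adjusted p 0.968), by -0.12 ± 0.068 (SE) in medium against air animals (adjusted p 0.402, interval -0.27 to 0.031) and by -0.14 ± 0.068 in medium against low animals (adjusted p 0.313).

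RPLP0, which forms the base of the ribosomal stalk, averaged 3051 ± 10.1 in air animals, 3028 ± 75.3 in low animals and 2985 ± 111 in medium animals (SD, n = 3, 3 and 4). It differed by -0.011 in low against air, -0.032 in medium against air and -0.021 in medium against low animals, and its groups overlapped. RPS6, the small subunit protein that S6 kinases phosphorylate, averaged 2755 ± 39.1 in air animals, 2809 ± 65.7 in low animals and 2780 ± 28.4 in medium animals, and differed by 0.028, 0.013 and -0.015 in the same order. RPS27A, made as a fusion with ubiquitin, averaged 3433 ± 41.03 in air animals, 3436 ± 42.3 in low animals and 3462 ± 84.1 in medium animals, and differed by 0.0013, 0.012 and 0.011. Under other scalings some of the signs of RPLP0, RPS6, RPS27A, RPL5 and RPL11 turned, as given with the alternatives.

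RPSA, a small subunit protein also known as a laminin receptor, read 2541, 2539, 2304 and 2493 in the medium animals, against 2561, 2574 and 2588 in the air animals. All 4 medium values lay below all 3 air values, with medium animal 41 far below the rest. The difference was -0.061 ± 0.059 (SE) with an adjusted p of 0.651, and that of medium against low animals was -0.046. It was -0.015 in low against air animals.

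The smallest p-values in medium against air animals belonged to RPS15A, RPL7L1 and RPL37 above air and to RPL36AL, RPL34 and RPL5 below it. RPS15A, a small subunit protein, read 9.0, 11.6 and 8.9 in the air animals, 13.6, 13.8 and 13.3 in the low animals, and 14.9, 16.6, 14.02 and 13.6 in the medium animals. Every exposed animal read above every air animal, on a probe set near the floor of the array. It differed by 0.25 ± 0.065 (SE) in medium against air animals (unadjusted p 0.0031, adjusted p 0.121) and by 0.20 ± 0.069 in low against air animals (adjusted p 0.661), on a scale of log2(signal + 16) that shrinks differences of so dim a probe set. With offsets of 1 and 64 in place of 16, the medium minus air difference of RPS15A was 0.56 and 0.094, and it was not called with either.

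RPL7L1, a paralog of RPL7 found in assembling human large subunits, read 705, 669 and 680 in the air animals, 690, 677 and 686 in the low animals, and 799, 764, 719 and 755 in the medium animals. All 4 medium animals were above all 6 others. It differed by 0.15 ± 0.058 (SE) in medium against air animals (adjusted p 0.255, interval 0.015 to 0.28) and by 0.15 ± 0.058 in medium against low animals (adjusted p 0.238). RPL37, a large subunit protein, averaged 591 ± 24.05 in medium animals, against 519 ± 59.6 in air animals. Its groups overlapped and it differed by 0.19 ± 0.099 (adjusted p 0.370).

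RPL36AL, a paralog of RPL36A, read 1423, 1423 and 1366 in the air animals, 1394, 1475 and 1424 in the low animals, and 1366, 1275, 1199 and 1308 in the medium animals. Every medium animal read below every air and low animal, though medium animal 34 came within 1 signal unit of air animal 44. It differed by -0.13 ± 0.063 (SE) in medium against air animals (adjusted p 0.349) and by -0.15 ± 0.063 in medium against low animals (adjusted p 0.247). RPL34, another large subunit protein, averaged 2157 ± 101 in medium animals, against 2326 ± 71.5 in air animals. The groups overlapped at air animal 29 and medium animal 42, and the difference was -0.11 ± 0.061 (adjusted p 0.402).

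**Figure D3:**
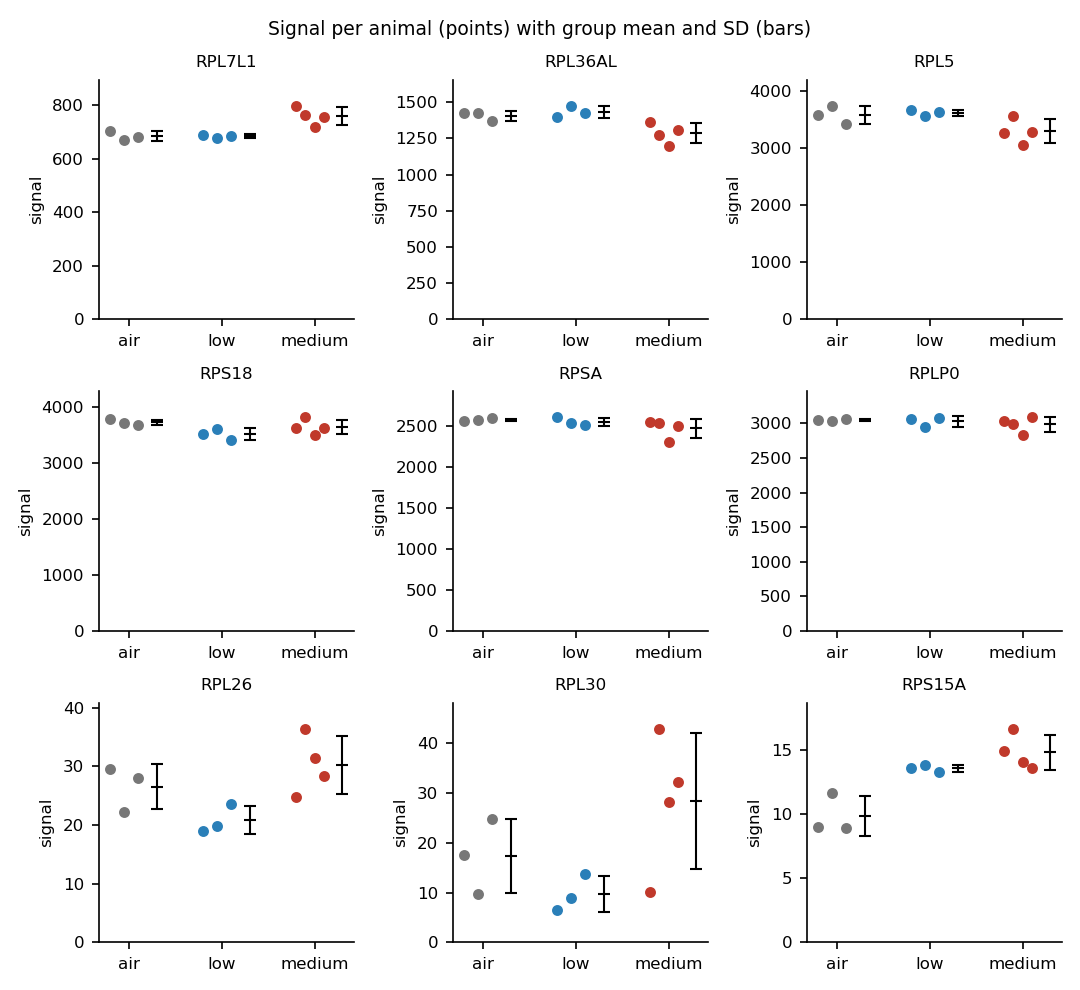
Quantile-normalized signal (y axis, from 0) of 9 genes by exposure, with 1 point per animal and the group mean and SD beside it. Medium animals lie above the others for RPL7L1 and below them for RPL36AL; RPL26, RPL30 and RPS15A have signals under 45, and 1 medium animal (34) lies with the low animals for RPL30.

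Between medium and low animals the smallest p-values belonged to the dim genes RPL26 and RPL30. Each had 1 probe set, so no brighter one could be set beside it. In this comparison dim further probe sets of RPL34 and RPL7 differed by 0.71 and 0.67, against -0.044 and -0.054 at their brightest. Of all 32 further probe sets, 13 were higher and 19 lower. Whether the RPL26 and RPL30 probe sets follow their messages was not tested. RPL26, whose human protein binds the p53 message after DNA damage, read 24.8, 36.4, 31.3 and 28.4 in the medium animals, against 19.1, 19.9 and 23.5 in the low animals. The groups did not overlap, while the air animals at 29.5, 22.2 and 27.9 lay across both. RPL26 differed by 0.32 ± 0.10 (SE) in medium against low animals (adjusted p 0.167) and by -0.21 ± 0.11 in low against air animals (adjusted p 0.690).

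RPL30, which in yeast limits the splicing of its own message, read 10.1, 42.9, 28.3 and 32.1 in the medium animals, against 6.6, 8.9 and 13.6 in the low animals, and the air animals read 17.6, 9.8 and 24.7. Medium animals 39, 41 and 42 were above every low animal and medium animal 34 was among them. The medium minus low difference was 0.74 ± 0.26 (SE, interval 0.16 to 1.31) with an adjusted p of 0.197. It was the gene called under an alternative: the difference was 0.97 (adjusted p 0.0288) without medium animal 34, where 1371 of all probe sets (5.71%) were called, and 0.71 (adjusted p 0.0295) with all arrays and a random animal effect, where 1401 (5.84%) were called. RPL30 differed in low against air animals by -0.36 ± 0.28 (adjusted p 0.739). The offset added before taking logs set the size of these differences: with an offset of 1 in place of 16 the medium minus low difference of RPL30 was 1.41, and with 64 it was 0.31. For RPL26 it was 0.52 and 0.15 with the same offsets. The low minus air difference was -0.80 and -0.14 for RPL30 and -0.34 and -0.092 for RPL26, and none of these was called.

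RPL14, a large subunit protein, averaged 2477 ± 99.9 in medium animals, against 2635 ± 92.3 in low animals, with a difference of -0.089 ± 0.059 (SE, adjusted p 0.445) and overlapping groups. In low against air animals the leading bright genes were RPS18, RPL8 and RPS15. RPS18, a common reference gene, read 3516, 3608 and 3399 in the low animals, against 3775, 3709 and 3669 in the air animals. The groups did not overlap, and the difference was -0.084 ± 0.062 (adjusted p 0.735). RPL8 averaged 3013 ± 78.4 in low animals, against 2880 ± 119 in air animals, and RPS15 averaged 2803 ± 79.0 in low animals, against 2679 ± 97.5 in air animals (SD, n = 3 each). Each differed by 0.065 with overlapping groups, and under the deposited scaling both signs turned.

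Groups that did not overlap were counted over all 61 genes. In low against air animals 7 of 61 genes (11.5%) had groups that did not overlap, against 18.6% of all probe sets. In medium against air animals 8 of 61 (13.1%) did, against 13.5% of all probe sets. In medium against low animals 16 of 61 (26.2%) did, against 13.9% of all probe sets. Of these 16, RPL26 and RPL7L1 were higher in the medium animals and the other 14 were lower: RPL36AL, RPL15, RPS4X, RPL8, RPL19, RPS13, RPLP2, RPS23, RPL13A, RPL7, RPL23, RPL9, RPL10A and RPLP1. Those 14 differences lay between -0.15 and -0.042, beside a half-width of 0.13 for a typical interval. With arrays centred on their middle value, the middle difference of the 61 genes in this comparison was 0.020 in place of -0.022.

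The level of these genes on an array moved with the scaling. With the values as deposited, the deviation was taken over the 53 of these genes above 2000. Their middle gene lay from -0.36 in the apical lobe of medium animal 39 to 0.23 in the apical lobe of air animal 44. These are deviations from each gene's mean over the 28 arrays. The 177 other probe sets above 2000 ran from -0.36 to 0.24 on the same arrays. The largest gap between the 53 genes and those other bright probe sets was 0.058 on any array, and the middle gap 0.011. As a description over 28 arrays that share their scaling, the correlation between both was 0.985. After quantile normalization the middle gene ran from -0.043 to 0.036.

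**Figure D4:**
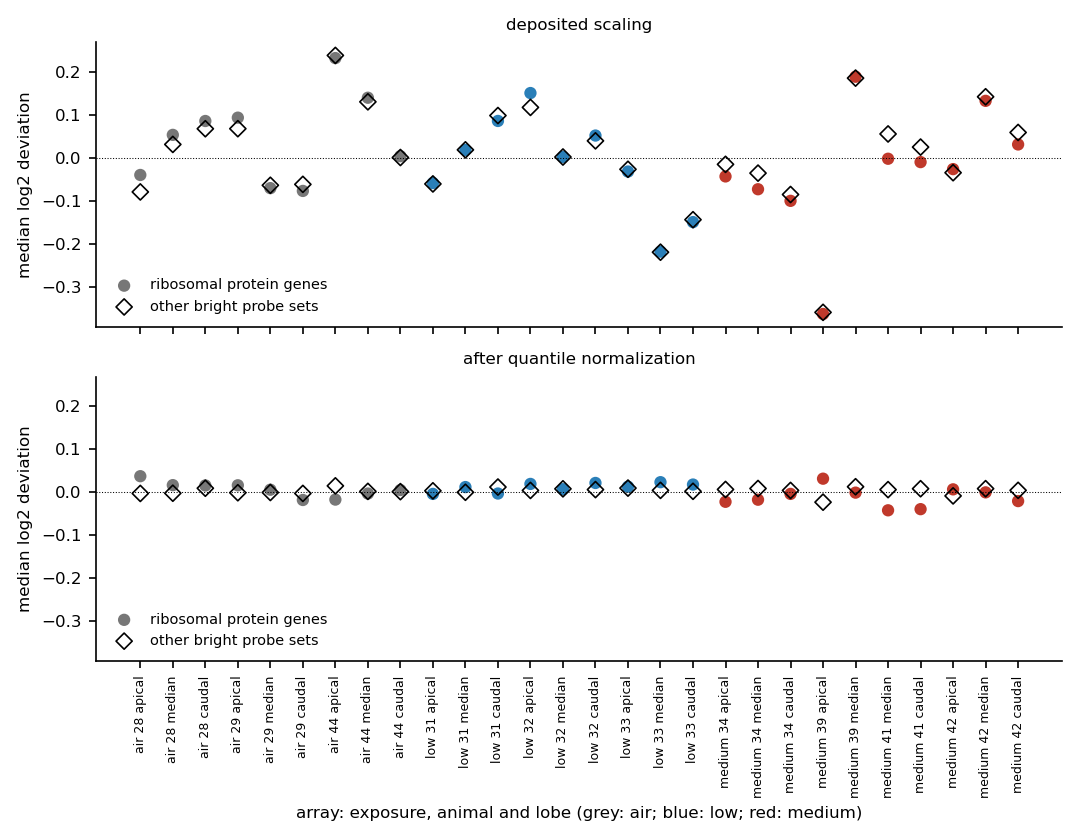
Middle log2 deviation (y axis) of the ribosomal protein genes (filled) and of the 177 other probe sets above 2000 (open diamonds) on each of the 28 arrays (x axis). With the deposited scaling (top) the filled points are the 53 genes above 2000, and both swing together between -0.36 and 0.24. After quantile normalization (bottom) the filled points are all 61 genes, which stay between -0.043 and 0.036.

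On the deposited scaling, the middle gene differed by -0.060 in low against air animals and by -0.069 in medium against air animals, and with arrays centred on their middle value by -0.085 and -0.061. The same scalings gave -0.014 and 0.020 in medium against low animals. The signs for low against air and for medium against low animals thus depended on the scaling. Because 53 of the 61 genes fill 22.6% of the top of the array, quantile normalization was also fitted without them, an alternative chosen after seeing the data. The middle gene then differed by 0.0085 in low against air, -0.026 in medium against air and -0.035 in medium against low animals. In none of these scalings was any of the 61 genes called.

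RNA quality was read from the ratio of 3-prime to 5-prime control probe sets for actin and GAPDH, as a mean log2 value. It was 0.83, 0.60 and 0.51 in the air animals, 0.21, 0.53 and 0.19 in the low animals, and 0.22, 1.41, 0.71 and 0.26 in the medium animals. Medium animal 39 stood highest, and the groups overlapped. The index differed by -0.34 in low against air animals, by 0.0024 in medium against air animals and by 0.34 in medium against low animals (exact two-sided permutation p 0.200, 0.971 and 0.286, n = 3 or 4 animals a group). No such test could reach 0.05, since the smallest p is 2 of 20 splits for 3 against 3 animals and 0.0571 for 4 against 3. Its part in the small differences of the 61 genes was not tested beyond a fit with the index as a covariate, in which 0 of 61 genes were called.

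Few cell type markers were called by the same test. Of the 15 marker lists, 0 genes were called in low against air or medium against low animals, and 1 in medium against air animals, where MUC1, an epithelial mucin, fell by 0.74 (adjusted p 0.0195). Of the T and NK cell markers, 9 of 11 were lower in medium than in air animals, with a middle difference of -0.35 and summed signals of 939 to 1687 in medium against 1891 to 1965 in air animals. Of the MHC class II markers, 8 of 9 were lower, with a middle difference of -0.26 and summed signals of 7558 to 11799 in medium against 10306 to 11984 in air animals. The other lists had middle differences between -0.34 and 0.37 in medium against air animals. Of the ciliated cell markers, 5 of 5 were lower in medium than in low animals, with a middle difference of -0.56 and summed signals of 945 to 996 in medium against 1106 to 1406 in low animals. In that comparison 8 of 9 MHC class II markers were lower, with a middle difference of -0.47, and 10 of 11 T and NK cell markers, with -0.39. In low against air animals 7 of 7 airway secretory markers were higher, with a middle difference of 0.44 and summed signals of 3995 to 4658 in low against 3110 to 3591 in air animals. The part of cell composition in the ribosomal protein values was not tested.

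Lobes were compared within animals, with the animal as a block over the 28 arrays, as paired samples of 1 animal. Between apical and median lobes 0 of 61 genes were called, against 570 of all probe sets (2.38%). Between apical and caudal lobes 0 of 61 were called, against 40 (0.167%), and between median and caudal lobes 0 of 61, against 0 of all probe sets (0%). The unadjusted counts were 2, 2 and 0 of 61, and 0 to 3, 0 to 4 and 0 to 2 over 22 alternatives each, against 16.6%, 13.6% and 11.6% of all probe sets. The middle gene differed by 0.0060, 0.0084 and 0.00059, and the intervals of all 55 bright genes lay within 0.25 of 0 in each lobe comparison.

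RPL37 had the smallest p between apical and median lobes. Its signal was 455 at the lowest, 526 in the middle and 608 at the highest over 9 apical arrays, against 451, 614 and 647 over 10 median arrays. It was lower in the apical lobe in 7 of 9 animals, by -0.13 ± 0.046 (SE, unadjusted p 0.0120 in limma), and it was not called after adjustment. RPL7L1 was also lower in the apical lobe in 7 of 9 animals, by -0.11 ± 0.050 (adjusted p 0.251), and against the caudal lobe by -0.11 ± 0.052 (adjusted p 0.340). RPL5 leaned the other way against the median lobe at 0.063 ± 0.040 (adjusted p 0.462), as did RPL14 at 0.052 and RPL15 at 0.046, while RPL26L1, a paralog of RPL26, differed by -0.058.

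Against the caudal lobe, the apical lobe differed by -0.22 ± 0.093 (SE, adjusted p 0.304) for RPL30 and by -0.13 ± 0.079 (adjusted p 0.515) for RPL26. With offsets of 1 and 64 the difference of RPL30 was -0.45 and -0.088. The bright genes RPS9, RPL13A and RPL5 differed by 0.048, 0.043 and 0.058 in that comparison. Between median and caudal lobes, RPL30 differed by -0.17, RPL26 by -0.14, RPL37 by 0.085, RPL6 by -0.036, RPS25 by 0.040 and RPL13A by 0.025, each with an adjusted p of 0.480 or more. RPL13A is also known from the GAIT complex, which silences inflammatory messages in human monocytes.

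Exposure and lobe were also fitted together. The interaction was called for 0 of 61 genes, against 0 of all probe sets (0%), and 0 of 61 had an unadjusted p under 0.05, against 7.39% of all probe sets. The smallest interaction p was 0.0730 for RPL26 (adjusted p 0.699), then 0.234 for RPS13 and 0.277 for RPL7L1. RPL7L1 ran from 795 to 859 in the median lobes of the 4 medium animals, against 641 to 681 in the median lobes of the 3 air animals. In the apical lobe the medium animals ran from 686 to 715, against 632 to 712 in air animals. In the caudal lobe they ran from 676 to 898, against 675 to 733 in air animals.

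Within single lobes 0 of 61 genes were called in any of the 9 fits of exposure. Over all probe sets the share called was 0.404% for medium against air in the median lobe, 0.00417% in the caudal lobe and 0% in the apical lobe. For medium against low it was 0.0208% in the median lobe and 0% in the other lobes, and for low against air 0% in every lobe. The members with an unadjusted p under 0.05 in these fits numbered 0 to 3 of 61, against 5.77% to 22.4% of all probe sets. In the median lobe, RPL7L1 differed by 0.29 ± 0.080 (SE, adjusted p 0.114) in medium against air animals, and RPL26 by 0.48 ± 0.14 (adjusted p 0.101) and RPL30 by 0.89 ± 0.29 (adjusted p 0.124) in medium against low animals.

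For 24 of the genes the array carries further probe sets, 32 in all, of which 4 are bright. With limma, 0 of the 32 were called in an exposure comparison. An unadjusted p under 0.05 was found for 2, 6 and 12 in low against air, medium against air and medium against low. Over all probe sets that share was 7.41%, 16.6% and 18.2%. The direction of the 32 matched that of the gene's brightest probe set in 16, 17 and 17 of 32 in the same order. The 32 differed by -0.91 to 0.38, -0.45 to 0.53 and -0.66 to 0.89, far more than the bright probe sets. RPS18 shows the disagreement among bright probe sets: in low against air animals its probe sets differed by -0.084, 0.083 and -0.12, none of them called.

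Further probe sets differed both ways in medium against low animals: 13 of the 32 were higher and 19 lower. The groups did not overlap for 5 of the higher and 7 of the lower ones, against 13.9% of all probe sets for both directions together. Among the lower ones, those of RPL24 differed by -0.66 (adjusted p 0.146) and those of RPL12 by -0.60 and -0.41 (adjusted p 0.166 and 0.180). The 3 with the largest positive differences, of RPL38, RPL34 and RPL7, were picked after the values were seen. A second probe set of RPL38 read 437, 608, 1119 and 1079 in the medium animals, against 390, 421 and 390 in the low animals, with air animals at 607, 468 and 484. The brightest RPL38 probe set differed by -0.033 in medium against low animals, while the second differed by 0.89 ± 0.29 (SE, adjusted p 0.179). A second probe set of RPL34 read 23.4, 47.7, 36.1 and 56.6 in the medium animals, against 18.03, 19.7 and 16.2 in the low animals.

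A second probe set of RPL7 read 11.9, 37.3, 27.7 and 36.8 in the medium animals, against 10.0, 10.6 and 12.7 in the low animals. Medium animal 34 was the lowest of the medium animals in each of these 3 probe sets. It was still above every low animal for RPL38 and RPL34, and lay among them for RPL7. The brightest RPL34 and RPL7 probe sets differed by -0.044 and -0.054 in medium against low animals, so probe sets of one gene gave opposite signs.

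A probe set annotated to LMLN and RPL35A read 26.0, 84.1, 86.6 and 79.1 in the medium animals, against 23.0, 23.9 and 27.4 in the low animals. It is outside the 61 genes because its annotation holds more than 1 symbol. Medium animal 34 again lay with the low animals, and the difference was 0.97 ± 0.31 (SE, adjusted p 0.173). This was the dimmest probe set with that annotation, at a mean signal of 43.7, and had the largest difference. The brighter ones, at 2861 and 318, differed by -0.0061 and 0.14 in medium against low animals. Of the 8 such probe sets that name RPL10, RPL36, RPL35A or RPS15, the brightest, for ANAPC11 and RPL10, differed by 0.019 in medium against air animals. That for LOC100624113 and RPS15 differed by -0.30 ± 0.085 (adjusted p 0.135), with every medium animal below every air animal. The brighter RPS15 probe set among the 61 genes overlapped. It read 2717, 2824, 2601 and 2676 in the medium animals, against 2778, 2676 and 2583 in the air animals.

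Among the look-alikes, RPS27L, a paralog of RPS27 and a p53 target in human cells, read 957, 1054, 1030 and 976 in the medium animals, against 894, 846 and 831 in the air animals. The groups did not overlap, and the difference was 0.22 ± 0.061 (SE, adjusted p 0.131). RPS27 itself differed by -0.0071. RPS6KA1, an S6 kinase of the RSK family, differed by -0.28 ± 0.081 (adjusted p 0.146) in medium against air animals.

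The wider translation machinery was described from lists of related genes. Neither FAU, which encodes a small subunit protein fused to a ubiquitin-like protein, nor RACK1, a scaffold on the small subunit, was called; in medium against air animals they differed by -0.045 and -0.0026. Of 16 measured genes with TOP messages outside the rule, which include FAU and RACK1, 15 were lower in medium than in air animals, with a middle difference of -0.096, against -0.019 for the 61 genes and -0.00044 for all probe sets. In medium against low animals 16 of 16 were lower, with a middle difference of -0.11, and in low against air animals 9 of 16 were, with -0.0042. No gene of the list was called in any comparison. An unadjusted p under 0.05 was found for 5, 4 and 1 of 16 in medium against air, medium against low and low against air animals. Over all probe sets that share was 16.6%, 18.2% and 7.41% in the same order.

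EIF4B, a helicase cofactor in translation initiation, led that list. It read 955, 1047, 889 and 1038 in the medium animals, against 1341, 1355 and 1203 in the air animals, without overlap. It differed by -0.40 ± 0.078 (SE, adjusted p 0.0773) in medium against air animals and by -0.39 ± 0.078 in medium against low animals (adjusted p 0.0968). EIF3L and EIF3E, subunits of the initiation factor eIF3, differed by -0.29 (adjusted p 0.165) and -0.22 (adjusted p 0.176) in medium against air animals, and in medium against low animals EIF3L differed by -0.39 (adjusted p 0.114) and EIF3H, also of eIF3, by -0.21 (adjusted p 0.218). HNRNPA1, an RNA-binding protein, differed by 0.24 in low against air animals, EIF3L by 0.10 and EEF1D, an elongation factor subunit, by -0.062.

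Genes of ribosome assembly were mostly higher in the medium animals, with none of them called in an exposure comparison. Of 45 measured, 37 were higher in medium than in air animals, with a middle difference of 0.23, and 24 had an unadjusted p under 0.05, but 0 were called. In medium against low animals 36 were higher, with a middle difference of 0.20 and 22 at an unadjusted p under 0.05. For low against air animals 28 were higher, with a middle difference of 0.066 and 3 at an unadjusted p under 0.05. Over all probe sets the share at an unadjusted p under 0.05 was 16.6%, 18.2% and 7.41% in that order. Between lobes, 40 of the 45 were lower in the apical than in the median lobe, with a middle difference of -0.20. Of these, 10 were called, against 2.38% of all probe sets. No gene of the list was called in the other lobe comparisons. NOP58, a core protein of the box C/D particles that methylate ribosomal RNA, read 638, 590, 618 and 621 in the medium animals, against 487, 426 and 463 in the air animals. Those groups did not overlap, and the difference was 0.42 ± 0.065 (SE, adjusted p 0.0519).

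LTV1, an assembly factor of the small subunit, differed by 0.42 ± 0.082 (SE, adjusted p 0.0778) in medium against air animals, and PPAN, a factor of large subunit maturation, by 0.43 ± 0.086 (adjusted p 0.0792). In medium against low animals PPAN differed by 0.56 (adjusted p 0.0852), NOP56, the partner of NOP58, by 0.44 (adjusted p 0.0968) and RIOK1, a kinase of small subunit maturation, by 0.39 (adjusted p 0.113). For low against air animals NOB1, a nuclease that trims the small subunit RNA, differed by 0.28, BYSL, another small subunit factor, by 0.48 and POLR1A, the largest subunit of RNA polymerase I, by -0.34, with adjusted p from 0.661 to 0.666.

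Of 7 measured genes of growth signalling, 5 were lower in medium than in air animals with a middle difference of -0.11, and 0 were called. The lower ones were MXI1, SESN1, TSC2, EIF4EBP2 and TSC1, and the higher ones MYC and RHEB. The list mixes activators and inhibitors, so its count and middle value give no direction of signalling. MYC, a transcription factor that drives ribosome production, read 258, 210, 317 and 350 in the medium animals, against 214, 173 and 197 in the air animals, and overlapped at medium animal 39. It differed by 0.49 ± 0.15 (SE, adjusted p 0.163), and MXI1, which antagonizes MYC, by -0.35 (adjusted p 0.261), while RHEB, an activator of mTOR, differed by 0.14 (adjusted p 0.302). In medium against low animals MYC differed by 0.39, EIF4EBP2, a repressor of translation, by -0.18 and MXI1 by -0.21. In low against air animals RHEB, TSC2, an inhibitor of mTOR signalling, and MXI1 differed by 0.083, -0.25 and -0.13. Over low against air and medium against low the list's middle differences were -0.030 and 0.0026. Between apical and median lobes 2 of the 7 were called, both higher in the apical lobe, against 2.38% of all probe sets.

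**Figure D5:**
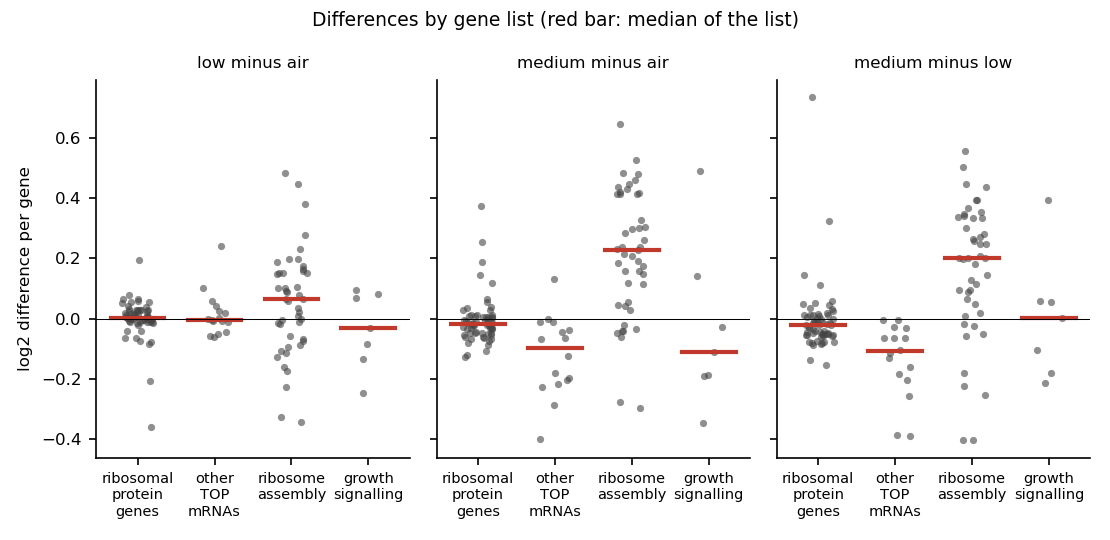
Log2 difference of each gene (points, y axis) by list (x axis) with 1 panel per exposure comparison, and the list's middle value drawn as a bar. In medium minus air the 61 ribosomal protein genes center on -0.019, the other TOP messages on -0.096 and the ribosome assembly genes on 0.23.

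Over the 10 animals the 55 bright genes varied together only loosely. The middle pairwise Pearson correlation was 0.203 among them and 0.00041 among the 177 other bright probe sets, which include some ribosomal ones. Both are descriptions over animals that share their normalization. The genes outside the rule most like the middle profile of the 61 were EIF3H at 0.933, GPRC5C at 0.914, POLR2J at 0.905, BEX3 at 0.903 and PARG at 0.902, over 10 animals and 6704 genes.

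Spread within groups differed between genes, and limma combined each gene's spread with that of all probe sets when it set the intervals. The SD between animals of a group was 0.011 on the log2 scale for RPS19, 0.013 for RPS10 and RPL27A, 0.015 for RPS23 and 0.017 for RPL23, RPS3A and RPS2, the lowest 7 of the 61. It reached 0.36 for RPL30, 0.14 for RPL37, 0.13 for RPL26 and 0.10 for RPL26L1 among the dim genes. Among the bright genes it was highest for RPS9 at 0.083 and RPL13 at 0.080.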

How the data were processed

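The deposited table holds linear signal intensities of 24123 probe sets on 28 Affymetrix porcine arrays, 1 lobe each; the software that made them is not given in the sources used here, and the number of arrays limits the precision. After 124 controls were left out, log2(signal + 16) was quantile normalized, although the deposited arrays share a scale already, with a trimmed mean signal near 150. Each animal's value came from a fit on animal and lobe. limma 3.58.1 (R 4.3.3) compared 10 animals, with the 3 exposure groups together, and compared lobes with the animal as block, since lobes come from the same animal. Benjamini-Hochberg adjustment covered 23999 probe sets. The code was tested on simulated data. Nothing states separate exposures, so p-values measure the spread between these animals.

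The genes named were those called in each comparison, the 3 with the smallest p in each direction (list genes: 3 in all), the 3 with the smallest interaction p, and RPLP0, RPS6, RPL5, RPL11, RPS27A and RPSA. Members, lists and this rule were chosen with earlier results of these data known. All 61 Entrez IDs carried the same symbol in RefSeq's gene table. RPL27 and RPS28 were read by probe sets whose names, ending in _s_at, mark probes shared between transcripts. Those of RPL13, RPL22, RPS15, RPS18, RPS21 and RPS26 end in _a_at, which also marks probes shared between transcripts. Processed copies of ribosomal protein genes may share others. No detection calls were used here. Alternatives covered scaling, offset, brightness, probe set choice, variance model, RNA index, animals and the block.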

Additional observations from a re-analysis of the deposited data

Results flagged for a closer look

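Among the 24 named genes, 3 had 1 of the 4 medium animals far from the other 3, judged by the gap to the nearest animal as a share of the group's range and Dixon's critical value for 4 animals. RPL13A read 3365, 3346, 3087 and 3379 in medium animals 34, 39, 41 and 42, and the gap of animal 41 was 0.893 of the range. RPL15 read 2453, 2434, 2306 and 2454 in the same order, and the gap of animal 41 was 0.868. RPS6 read 2799, 2737, 2790 and 2793, and the gap of animal 39 was 0.853. Chance flags about 1 in 20 groups, and the air and low groups were not judged by this measure.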

How the results depend on the processing

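The exposure comparisons rest on 3 or 4 animals a group and on probe sets whose middle brightness exceeds most of the array, so small shifts cannot be separated from scaling. The 3 exposure and 3 lobe comparisons were run under 22 alternatives each and the interaction under 20; the single-lobe exposure fits were run under none. None of these alternatives called any of the 61 genes, except that the random animal effect, and leaving out medium animal 34, each called 1 gene, RPL30, in medium against low animals; the leave-one-out counts there ran from 0 to 1. In the paired lobe comparisons, fits with no replicate block also called 0 genes and gave middle differences of 0.0093 (apical against median), 0.0078 (apical against caudal) and 0.0025 (median against caudal). The cause of the changes below was not tested. Values are log2 differences.

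With the deposited scaling, the middle difference was -0.060 for low against air, -0.069 for medium against air, -0.030 for apical against median and 0.032 for median against caudal lobes. With median-centred arrays it was -0.085 for low against air, -0.061 for medium against air and 0.020 for medium against low. With quantile normalization fitted without the 61 genes, chosen after seeing the data, it was -0.035 for medium against low.

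Single genes near 0 changed sign, none with an adjusted p under 0.05. With the deposited scaling, low against air gave RPL8 -0.0073, RPS15 -0.011, RPS6 -0.046, RPL5 -0.057, RPL11 -0.034 and RPS27A -0.061, medium against air gave RPS6 -0.038 and RPS27A -0.039, and medium against low gave RPLP0 0.00028 and RPS6 0.0083. With median-centred arrays, low against air gave RPL8 -0.032, RPS15 -0.036, RPS6 -0.072, RPL5 -0.082, RPL11 -0.059 and RPS27A -0.086, medium against air gave RPS6 -0.030 and RPS27A -0.031, and medium against low gave RPLP0 0.034, RPS6 0.042 and RPL11 0.017. With the mean of a gene's probe sets, RPS27A gave -0.093 in low against air, -0.13 in medium against air and -0.034 in medium against low, RPLP0 gave 0.19 in medium against air and 0.19 in medium against low, RPL34 gave 0.074 and RPS6 -0.087 in medium against air, and RPL13A gave -0.034 (apical against caudal) and -0.0055 (median against caudal).

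The RNA index as a covariate gave RPS27A -0.0034 in low against air. The 8 complete animals gave RPLP0 0.0044 and RPS27A -0.00051 in medium against air, and RPLP0 0.015 and RPS27A -0.0019 in medium against low. Quantile normalization without the 61 genes gave RPS27A -0.015 in medium against air and -0.021 in medium against low. Only the air animals gave RPL5 -0.032 and RPL7L1 0.024 between apical and median lobes, and RPL5 -0.0038 and RPL26 0.016 between apical and caudal lobes.

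Leaving out each animal in turn turned further signs, none of them called. For low against air, RPLP0 ran from -0.024 to 0.0094, RPL5 from -0.016 to 0.050 and RPS27A from -0.0057 to 0.011. For medium against air, RPL11 ran from -0.011 to 0.0061 and RPS27A from -0.0036 to 0.023. For medium against low, RPLP0 ran from -0.042 to 0.0037, RPS6 from -0.027 to 0.0041 and RPS27A from -0.0050 to 0.019.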

Other observations

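The array's controls for ribosomal RNA were read beside the ribosomal protein genes. Their values are as deposited, without quantile normalization. Whether they follow the amount of ribosomal RNA was not tested. The 5S control averaged 428, 340 and 873 in air animals 28, 29 and 44, 294, 469 and 204 in low animals 31, 32 and 33, and 336, 1027, 673 and 1027 in medium animals 34, 39, 41 and 42. Medium animal 34 was the lowest of the medium animals in the 5S, 18S and 28S controls, and also for RPL30. A link between these was not tested. The medium minus low difference of the 5S control was 443 signal units (exact two-sided permutation p 0.114, adjusted p 0.675 over 9 such tests), and that of medium minus air was 219 (exact p 0.400, adjusted p 0.720). With 4 against 3 animals, the smallest p this test allows is 0.0571. The 18S control averaged 295 ± 80.5 in air, 380 ± 24.3 in low and 326 ± 59.3 in medium animals, and the 28S control 613 ± 267, 622 ± 90.2 and 633 ± 156 in the same order (SD, n = 3, 3 and 4).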
